A study of Mus musculus with 22 samples.

Results

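The absorptive and secretory tuft lineages of the mouse colon crypt were compared across 2 stages of maturation. The comparison used 17 of the 22 RNA-seq libraries of sorted crypt cells: 3 of absorptive progenitors (AbsPro) and 5 of enterocytes (Enterocyte) for the absorptive lineage, and 4 of secretory progenitors (SecPDG) and 5 of tuft cells (Tuft) for the secretory lineage. The members were taken by sort label and not by any measured value, although earlier results of these data were known when the comparison was chosen. The lineage effect was taken at the progenitor stage as SecPDG against AbsPro and at the mature stage as Tuft against Enterocyte, and a gene was counted for the lineage when both contrasts passed in the same direction. The remaining 5 libraries, 3 of stem cells and 2 of enteroendocrine cells (EEC), entered the fit for the gene filter, the scaling and the spread between libraries. All cells came from untreated wild-type male C57BL/6N mice of 5 to 7 weeks, and every sort kept live Epcam+ cells without Cd31 or Cd45. AbsPro cells were gated as Cd44 medium to high, Cd24 low and Ckit-, and Enterocyte cells as Cd44 low or negative and Cd24-. SecPDG cells were labelled as Cd44 high with medium Cd24 and Ckit, although the study's text calls this population Cd44 medium, and Tuft cells as Ckit+ with high Cd24. SecPDG is a mixed gate of secretory progenitors and deep crypt secretory cells, to which goblet cells may add a minor part. Libraries were described as biological replicates, and several mice were pooled for each SecPDG, Tuft and Enterocyte library, so the spread between those libraries is a spread between pools. In bulk samples, fewer cells of a type and less RNA per cell cannot be told apart.

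Daughters of colon stem cells take an absorptive or a secretory fate, and Notch signaling between neighboring cells sets the choice. A cell that receives Notch signal through its ligands Dll1 and Dll4 turns on Hes1, which represses Atoh1, the transcription factor needed for secretory cells. Absorptive cells mature into enterocytes, which take up water, salt and short-chain fatty acids through a brush border. Secretory daughters include goblet cells, which store O-glycosylated mucins, and tuft cells, which are chemosensory and depend on the transcription factor Pou2f3.

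The libraries held 5950619 to 22157285 counts on genes, with the Enterocyte libraries shallowest (5950619 to 12966128). Values below are normalized counts, that is, counts scaled to a common library size, and are not divided by gene length, so they compare samples and not genes. Of the counts on or outside genes, 45.5 to 49.4% (AbsPro), 40.9 to 46.8% (SecPDG), 43.4 to 68% (Tuft) and 66.8 to 83.1% (Enterocyte) lay outside genes. Receptor and keratin-associated families that colon cells are not known to use served as a measure of background, and they took 778 to 3921 CPM (counts scaled to a common library total) in Enterocyte against 12.2 to 157 in AbsPro. The deposited files of SecPDG and Tuft also carry another form of name than those of AbsPro, Enterocyte, stem cells and EEC. If that form marks a separate run, run and lineage cannot be told apart in any result below.

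Of 22781 genes tested, 276 were higher in SecPDG than in AbsPro (1.21%) and 230 were lower (1.01%), so that 506 (2.22%) were called at the progenitor stage. At the mature stage 1044 genes were higher in Tuft than in Enterocyte (4.58%) and 394 were lower (1.73%), or 1438 in all (6.31%). A gene was called at an edgeR adjusted p under 0.01 with an average of 50 or more normalized counts in the 17 libraries. Both contrasts called 205 genes higher in the secretory lineage (0.9%) and 157 higher in the absorptive lineage (0.689%). These 362 genes were 71.5% of the progenitor calls and 25.2% of the mature calls. No gene was called in opposite directions at the 2 stages (0%), with 51 genes at an unadjusted edgeR p under 0.05 at both stages with opposite signs and 12 called that way by DESeq2.

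The sizes of the both-stage effects describe genes chosen by passing both tests, a choice that favors large effects and little overlap. The median log2 fold change of the 205 secretory genes was 2.31 at the progenitor stage and 2.18 at the mature stage, and that of the 157 absorptive genes was -2.93 and -2.71, where negative values mean higher in absorptive cells. Over the 12869 genes averaging 50 or more normalized counts the medians were -0.04 and 0.22. All 362 genes differed by at least 2-fold at both stages, and 34 secretory and 52 absorptive genes by at least 8-fold. The 9 secretory and 8 absorptive libraries did not overlap for 179 of the 205 and 128 of the 157 genes, against 445 and 276 of all genes tested. The background estimate passed 10% of the higher group's mean for 0 of 198 secretory and 1 of 155 absorptive genes that had one. Of the 506 progenitor calls, 96.8% had the same sign at the mature stage, against 63.8% of all genes with that mean. The sizes at the 2 stages correlated with Pearson's r = 0.53 across these genes, which are not independent replicates. Below, a pair of log2 fold changes gives the progenitor stage first and the mature stage second, each ± SE, and a pair of list medians follows the same order.

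The number of calls depended on the scaling and on single libraries, while no named gene that was called changed sign under any alternative run. With DESeq2's size factors the both-stage counts were 398 and 286, with 182 of the 205 and 151 of the 157 among them, and the share of mature calls that were higher in Tuft moved from 72.6% to 54.1%. Without AbsPro replicate 2 the secretory count fell to 90 and 86 of the 205 genes kept their call, while the absorptive count was 133. Among the genes named below, the progenitor calls on Atoh1, Creb3l1, Creb3l4, Agr2, Reg4, Ern2, Hyou1, Kdelr3, Rab3d, Dclk1, Dll4, Lfng, Pcsk1, Nr1i2, Vav1 and Pstpip2 were lost without it. AbsPro replicate 2 had the lowest summed mucus and goblet genes of the 17 libraries, 106198 normalized counts against 246245 and 321966 in the other AbsPro libraries, and the part of those genes in the result was not tested.

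**Figure D1:**
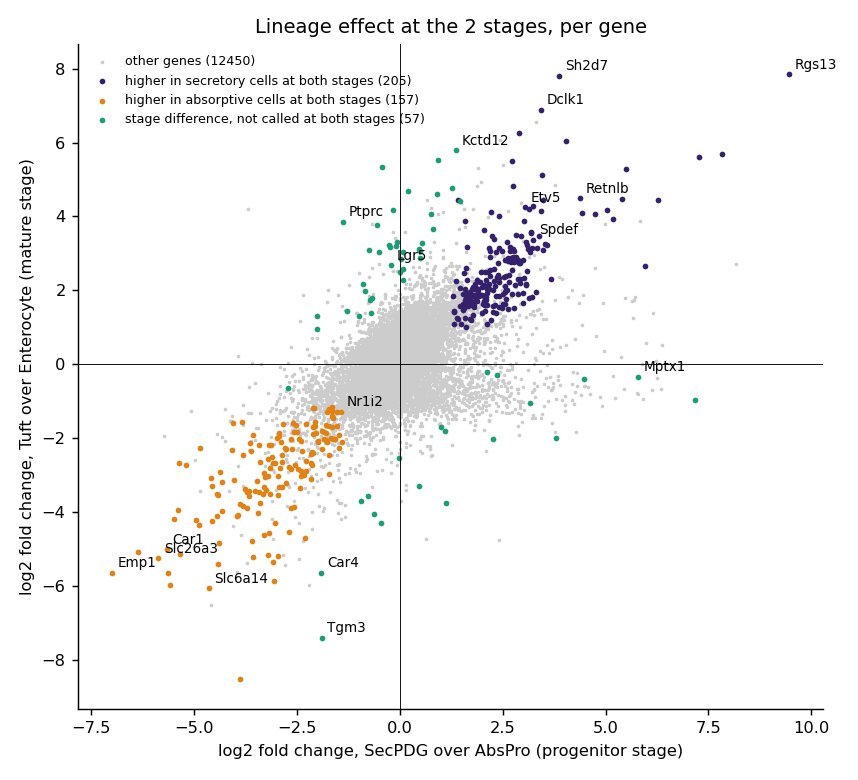
Each point is a gene averaging 50 or more normalized counts, with the log2 fold change of SecPDG over AbsPro on the x axis and of Tuft over Enterocyte on the y axis. The 205 secretory genes lie in the upper right and the 157 absorptive genes in the lower left, and 57 further genes whose lineage effect differed between the stages have their own color.

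Of 18 listed transcription factors of the secretory fate, 7 were higher in secretory cells at both stages and none was lower at both. They were Atoh1, Spdef, Gfi1, Foxa3, Pou2f3, Creb3l1 and Creb3l4. Over all genes tested the secretory and absorptive shares were 0.9% and 0.689%. As only genes averaging 50 or more normalized counts could be called, the base for list counts here and below is 205 and 157 of 12869 genes. The list median was 2.12 and 2.14. Atoh1 (chr6:64729125-64731245, plus strand, GRCm38) was 1144, 440 and 1946 in AbsPro, 686, 556, 889.5, 1297 and 1137 in Enterocyte, 5642, 9208, 6471 and 6895 in SecPDG and 4147, 3537, 2903, 2522 and 5347 in Tuft. Every secretory library lay above every absorptive library, with a log2 fold change of 2.58 ± 0.57 (SE, edgeR adjusted p = 0.00434) at the progenitor stage and 2.02 ± 0.45 (edgeR adjusted p = 0.00193) at the mature stage. The mature call on Atoh1 was lost with DESeq2 (adjusted p = 0.0122), with its size factors in edgeR (0.015), with library totals (0.0205) and without Enterocyte 1, 2 and 3 (0.0713), the libraries with the most background reads. Its progenitor call was lost without AbsPro 1 (edgeR adjusted p = 0.0222), without AbsPro 2 (0.0618) and with library totals (0.0113).

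Spdef (chr17:27714352-27728955, minus strand), which acts after Atoh1 to mature goblet cells, was 596, 414 and 1014 in AbsPro, 334, 231, 254, 462 and 622 in Enterocyte, 6136, 7246, 6188 and 6024 in SecPDG and 3324, 3927, 3841, 2913 and 5750.4 in Tuft. The lineages did not overlap in any of the 17 libraries, and the log2 fold changes were 3.25 ± 0.47 and 3.38 ± 0.38. Creb3l1 and Creb3l4, membrane-bound factors of the secretory pathway, also rose, Creb3l1 by 2.19 ± 0.46 and 2.56 ± 0.38 and Creb3l4 by 2.77 ± 0.58 and 3.06 ± 0.47. Pou2f3, the tuft cell factor, was 2.12, 0.813 and 1.88 in AbsPro and 116, 134, 124 and 165 in SecPDG, and 140.5, 90.6, 181, 29.7 and 96.9 in Enterocyte and 1842, 1333, 2346, 3852 and 2393 in Tuft. The SecPDG libraries lay within the Enterocyte range of Pou2f3, and the Tuft libraries lay above both. The background estimate was 45.3% of the AbsPro mean of Pou2f3.

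Of 21 listed factors tied to the absorptive fate, 1 was called at both stages. Nr1i2, the xenobiotic receptor PXR, was higher in absorptive cells at both stages, and the list median was -0.52 and -0.44. Nr1i2 was 1108, 1001 and 1252 in AbsPro against 209, 410.3, 459.9 and 592 in SecPDG, and 682, 808, 728, 1445 and 1057 in Enterocyte against 392, 341, 248, 432 and 529 in Tuft. The ranges did not overlap at either stage, and the log2 fold changes were -1.42 ± 0.34 and -1.28 ± 0.29. The progenitor call on Nr1i2 stood close to the threshold (edgeR adjusted p = 0.00847) and was lost when any of AbsPro 2 or 3, SecPDG 1, 2 or 3, Tuft 1 or 2 or Enterocyte 2 was left out, and the mature call without Tuft 3. Hnf4a, a nuclear receptor of enterocyte genes, had 14075 ± 391 normalized counts in AbsPro (SD, n = 3) and 7089.9 ± 661 in SecPDG (n = 4), and 6792 ± 2847 in Enterocyte and 5484 ± 952 in Tuft (n = 5 each). Its log2 fold change of -0.99 ± 0.40 at the progenitor stage did not pass (edgeR adjusted p = 0.212), although the AbsPro and SecPDG libraries did not overlap. It passed with DESeq2 (adjusted p = 0.00195) and with library totals (0.00265). Cdx2, the intestinal identity factor, also passed at neither stage, at -0.46 ± 0.43 and 1.25 ± 0.36, and passed at the mature stage, higher in Tuft, with only the 17 libraries in the fit, with the replicate block and without any of AbsPro 1 or 3, Tuft 4 or Enterocyte 1.

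In the Notch pathway, the ligands Dll1 and Dll4 were among the genes called at both stages. Dll1, Dll4, Nov and Lfng were higher in secretory cells at both stages, 4 of 23 listed genes against 0.9% of all genes tested. The list median was 0.28 and 0.42. Dll1 was 713, 399 and 882 in AbsPro, 323, 260.4, 273, 762 and 403 in Enterocyte, 2556, 3088, 2514 and 2774 in SecPDG and 1638, 1233, 1041, 1262 and 1484 in Tuft. No secretory library fell to the absorptive range, and the log2 fold changes were 2.04 ± 0.36 and 1.72 ± 0.29. The second ligand, Dll4, rose by 1.81 ± 0.41 and 1.56 ± 0.33, and its progenitor call was lost without AbsPro 2 or 3 or SecPDG 2 or 4, and its mature call without Enterocyte 1 to 3. Lfng, a glycosyltransferase that modifies Notch receptors, rose by 1.56 ± 0.36 and 2.47 ± 0.30, and its progenitor call was lost without any of AbsPro 1, 2 or 3 or SecPDG 2, 3 or 4. Nov (Ccn3), a secreted protein listed here for its reported binding to Notch, rose by 5.17 ± 0.67 and 3.94 ± 0.50, from 58.1 ± 20.8 in AbsPro (SD, n = 3) to 2102 ± 968 in SecPDG (n = 4). The Notch target Hes1 had 1013 ± 125 normalized counts in AbsPro and 538 ± 139 in SecPDG, and 665 ± 316 in Enterocyte and 422 ± 157 in Tuft, and it passed at neither stage (edgeR adjusted p = 0.253 and 0.297). At the mature stage Hes1 was lower in Tuft with DESeq2 (adjusted p = 0.00277) and with library totals (0.00363). Notch1, the receptor, was -0.64 ± 0.33 at the progenitor stage, which did not pass, and 1.15 ± 0.28 at the mature stage (edgeR adjusted p = 0.00504). The mature call on Notch1 was lost with library totals and without any of Tuft 1 or 3 or Enterocyte 2, 3 or 5. It was also lost without Enterocyte 1 to 3 together (edgeR adjusted p = 0.104).

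**Figure D2:**
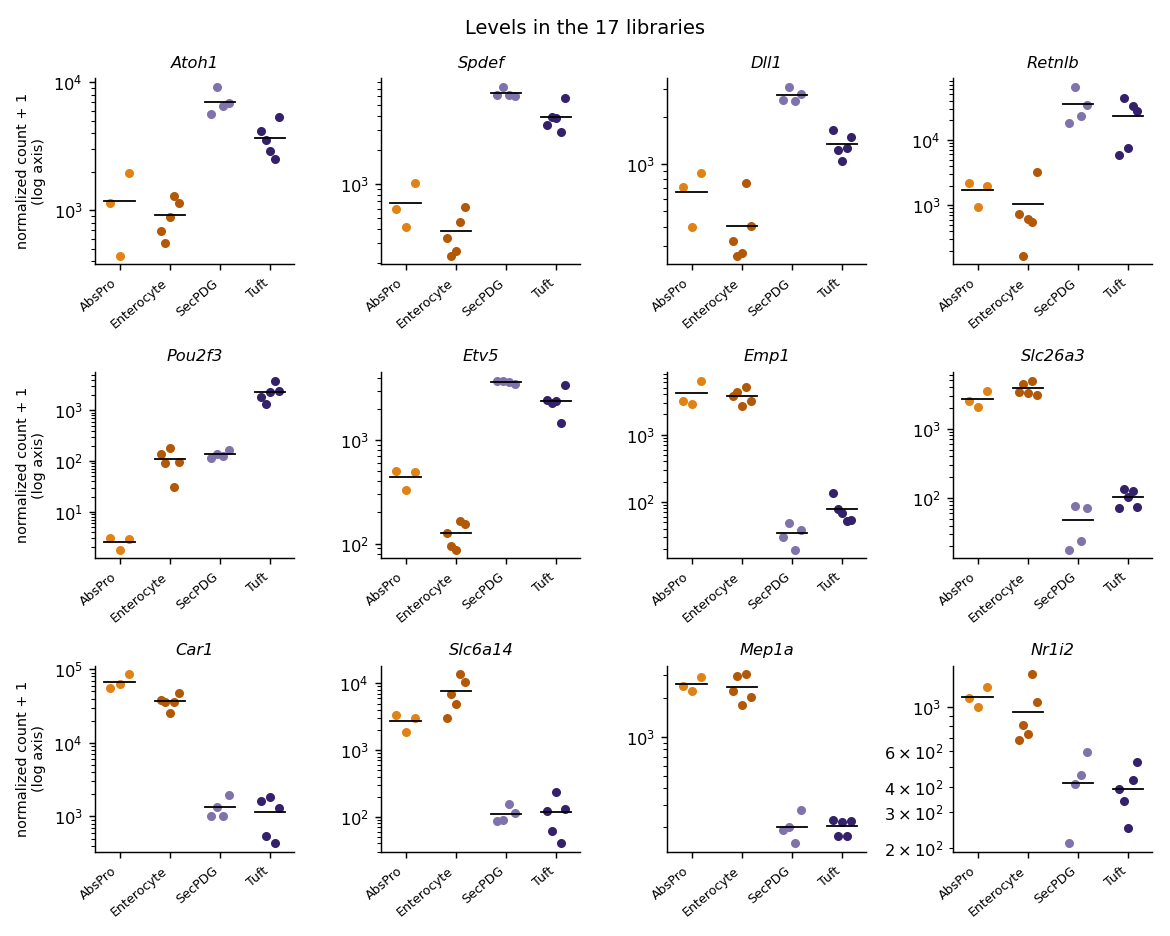
Normalized counts plus 1 on a log axis for 12 genes, with a point for each library and a bar at the group mean (AbsPro n = 3, Enterocyte n = 5, SecPDG n = 4, Tuft n = 5). The first 6 genes, Atoh1 to Etv5, are higher in all SecPDG and Tuft libraries than in the absorptive libraries of the same stage, and the last 6, Emp1 to Nr1i2, are lower.

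By count, enzymes that build mucin glycans gave the most secretory genes of any list examined. The lists differ in size and were chosen with earlier results of these data known, so this order does not rank pathways. Among 26 O-glycosylation genes, 13 were higher in secretory cells at both stages, against 0.9% of all genes tested, and none was lower at both. They covered the first step of mucin O-glycosylation (Galnt3, Galnt5, Galnt6, Galnt7, Galnt10 and Galnt12), core 1 synthesis (C1galt1 and its chaperone C1galt1c1), core 3 synthesis (B3gnt6), and capping or extension (A4gnt, St3gal1, Fut4 and Chst4). The list median was 1.77 and 1.64. A4gnt, which adds terminal N-acetylglucosamine to mucin glycans, was 860.4, 394 and 955 in AbsPro and 6649, 11015, 6682 and 8198 in SecPDG, and 116, 47, 126, 209 and 224 in Enterocyte and 4161, 5909.8, 3495, 4289.8 and 7167 in Tuft. The secretory libraries were 11.1-fold and 34.7-fold higher by their means. B3gnt6 rose by 3.25 ± 0.56 and 4.29 ± 0.47, Chst4, a sulfotransferase, by 2.56 ± 0.49 and 2.83 ± 0.39, and Galnt5 by 2.92 ± 0.47 and 2.30 ± 0.36. Cmah, which converts N-acetyl to N-glycolyl sialic acid, lay outside the list and rose by 3.38 ± 0.58 and 3.48 ± 0.46.

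Among 15 mucus and goblet genes, 5 were higher in secretory cells at both stages, against 0.9% of all genes tested: Agr2, Retnlb, Reg4, Tpsg1 and Klk1. The mature call on Tpsg1 was lost without Enterocyte 1 to 3 together (edgeR adjusted p = 0.0141). The list median was 2.74 and 1.76. Retnlb, an antibacterial goblet cell protein, was 2174, 939 and 1939 in AbsPro and 18147, 64908, 23159.5 and 34422 in SecPDG, and 735, 167, 617, 549.7 and 3197 in Enterocyte and 5895, 44531, 7611, 32632 and 27556 in Tuft. All 9 secretory libraries exceeded all 8 absorptive libraries, with Tuft replicates 1 and 3 lowest among them, and the log2 fold changes were 4.38 ± 0.78 and 4.49 ± 0.62. Reg4, a marker of deep crypt secretory cells, averaged 18237 ± 10360.2 in AbsPro (SD, n = 3), 7333 ± 8045 in Enterocyte (n = 5), 165136 ± 52416 in SecPDG (n = 4) and 88412 ± 45577 in Tuft (n = 5), with log2 fold changes of 3.18 ± 0.76 and 3.59 ± 0.61. Its progenitor call was lost without any one of the 7 progenitor libraries or Tuft 1, 2 or 3. Agr2, a disulfide isomerase needed for mucin production, rose by 2.74 ± 0.63 and 2.91 ± 0.51, and its progenitor call was lost without any of AbsPro 1 or 2 or SecPDG 1, 3 or 4. Muc2, the main colonic mucin, was 63492, 29153 and 88399 in AbsPro and 374475, 1142533, 357958 and 669289 in SecPDG, and 95343, 64556, 100229.9, 110242 and 194508 in Enterocyte and 970199.5, 518817, 755045, 377862 and 753527 in Tuft. Its groups did not overlap at either stage, but the progenitor contrast missed the threshold (10.5-fold by the means, edgeR adjusted p = 0.0123) while the mature one passed (5.98-fold, edgeR adjusted p = 0.00595). The progenitor contrast passed with DESeq2 (adjusted p = 2.06e-10), its size factors in edgeR (2.40e-04), library totals (1.45e-04), no filterByExpr, thinning, only the 17 libraries in the fit and without Enterocyte 1 to 3, so the stages are not shown to differ for Muc2. The mature call on Muc2 was lost without Enterocyte 1 to 3 together, and without any of SecPDG 4, Tuft 1, 3 or 5 or Enterocyte 2 or 3.

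The goblet list marks a cell type that neither mature gate was set for. Its summed normalized counts spanned 106198 to 321966 (AbsPro), 250409.6 to 774302 (Enterocyte), 936963 to 3610591 (SecPDG) and 951063 to 1462249.9 (Tuft), so all Tuft libraries lay above all absorptive libraries. Zg16, a mucus lectin, had 15394 ± 2632 normalized counts in Enterocyte and 785 ± 313 in Tuft (SD, n = 5 each), a log2 fold change of -4.29 ± 0.47 (edgeR adjusted p = 2.95e-08). Clca1, Fcgbp and Tff3, 3 further goblet products, did not pass at either stage. Clca1 was at 4.21 ± 1.02 and -0.20 ± 0.71 (edgeR adjusted p = 0.0102 and 0.896), and its progenitor contrast passed with DESeq2 (adjusted p = 1.40e-04), its size factors, library totals, no filterByExpr, thinning, only the 17 libraries in the fit and without Enterocyte 1 to 3. Fcgbp was at 2.32 ± 0.75 and -0.59 ± 0.58 and passed at the progenitor stage with DESeq2 (0.00139) and its size factors. Tff3 was at 1.26 ± 0.53 and -0.95 ± 0.43 and was lower in Tuft with DESeq2 (0.0058). The interactions of Clca1, Fcgbp and Tff3 passed with DESeq2 and not with edgeR. Of the 15 genes of the list, 8 were higher in SecPDG, 7 were higher in Tuft and 1, Zg16, was lower in Tuft. These 4 genes were chosen after their values were seen. The part that goblet cell RNA in the SecPDG and Tuft libraries has in the mucin and glycosylation results was not tested.

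Genes of the secretory pathway were also called. Of 32 genes of the endoplasmic reticulum and the unfolded protein response, 7 were higher in secretory cells at both stages. None was lower at both, and the secretory share over all genes tested was 0.9%. The list median was 1.28 and 1.26. Ern2, the stress sensor of mucus-producing cells, rose by 2.05 ± 0.40 and 1.86 ± 0.32, and Eif2ak3, another sensor of the same response, was also called at both stages. Pdia5, a disulfide isomerase, rose by 2.67 ± 0.44 and 3.06 ± 0.36 and Kdelr3, a retrieval receptor, by 2.64 ± 0.54 and 2.88 ± 0.44. Hyou1, a chaperone, stood close to the threshold at the progenitor stage (edgeR adjusted p = 0.00964), and its call was lost without any one of the 7 progenitor libraries, Tuft 1, 2 or 3 or Enterocyte 2. Of 27 genes of regulated secretion, 3 were called at both stages: Rab3d and Syt7, which act in granule release, and Ptprn2, a protein of dense-core granules. Their mature changes were 2.04 ± 0.35, 1.52 ± 0.33 and 2.40 ± 0.33, against a list median of 0.09. The progenitor call on Rab3d was lost without any one of the 7 progenitor libraries or Tuft 1 or 3, and the mature call on Syt7 without Enterocyte 1 to 3.

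Tuft cell genes were called at both stages from very different levels. Of 21 listed, 7 were higher in secretory cells at both stages, against 0.9% of all genes tested: Rgs13, Sh2d7, Gnat3, Plcb2, Avil, Dclk1 and Pou2f3. The list median was 2.14 and 4.11. Pou2f3 was also counted among the secretory factors above. Rgs13, a regulator of G-protein signaling, was at 0 in all 3 AbsPro libraries and at 131, 37.3, 108 and 73.4 in SecPDG, at least 108-fold higher than the 3 counts that a total of 0 over the AbsPro libraries allows. In Enterocyte it was 5.85, 9.18, 15, 10.3 and 22.2 and in Tuft 2280, 1686, 2303, 4739.5 and 3493, 232-fold higher by the means. The SecPDG level of Rgs13 was 87.5 on average and the Tuft level 2900.2. Gnat3, the taste G protein gustducin, was likewise at 0 in AbsPro, with 81 raw counts over the 4 SecPDG libraries and 4141 over the 5 Tuft libraries. Its progenitor call was lost when larger libraries were thinned to the smallest total of the 17 (edgeR adjusted p = 0.0198). Plcb2, the phospholipase of taste transduction, rose by 5.41 ± 0.60 and 4.47 ± 0.42.

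Dclk1, the kinase most used as a tuft cell marker, was 26.1, 1.63 and 14.1 in AbsPro and 46.3, 98.2, 313 and 156 in SecPDG, and 275, 173, 226, 89 and 162 in Enterocyte and 23983, 11726, 23205, 31011 and 19591 in Tuft. Enterocyte and SecPDG libraries overlapped, while every Tuft library was far above. Trpm5, the cation channel of the same signaling path, passed only at the mature stage, with 2.43 ± 0.64 at the progenitor stage (edgeR adjusted p = 0.0219) and 6.07 ± 0.58 at the mature stage (edgeR adjusted p = 1.94e-09). The progenitor contrast on Trpm5 passed with only the 17 libraries in the fit, without AbsPro 3 and without Enterocyte 1 to 3. The summed tuft list spanned 423 to 466 (AbsPro), 1476 to 2091 (SecPDG), 1174 to 2478 (Enterocyte) and 40612 to 110310 (Tuft). The part of single tuft cells within the SecPDG gate in the progenitor calls was not tested. The background estimate was 61% of the Enterocyte mean for Rgs13, 38.1% for Dclk1 and 44.1% for Sh2d7, and at most 0.362% of the Tuft mean for the 6 of these genes that were named by rule.

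**Figure D3:**
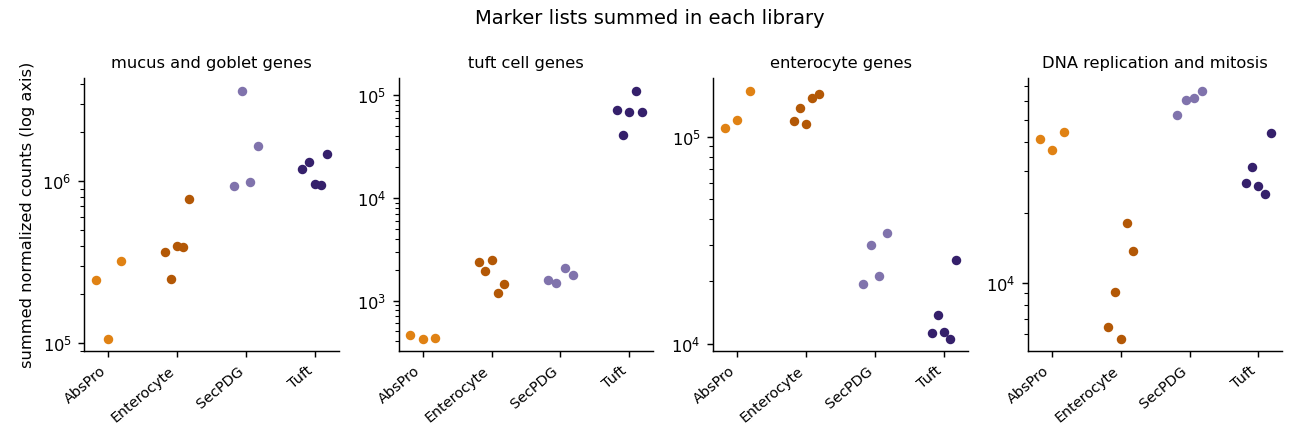
Summed normalized counts of 4 gene lists in each of the 17 libraries, on log axes. Tuft libraries hold the tuft list at 40612 to 110310 and the goblet list at 951063 to 1462249.9, and the enterocyte list is at 111017 to 167055 in AbsPro and 116001 to 161248 in Enterocyte.

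The lists of secretory genes differed in how the SecPDG and Tuft means compared. The rule set no limit on this ratio, but both means entered the calls, so it is not independent of how the genes were chosen. No ratio over all genes was taken for comparison. Over the 205 genes the Tuft mean was 75.3% of the SecPDG mean at the median, with quartiles of 64.4% and 101%, and 54 genes were higher in Tuft. The 13 O-glycosylation genes had a median of 64.8% (55.1 to 101%) and the 7 endoplasmic reticulum genes one of 63.3% (46 to 72.6%). For the 5 mucus and goblet genes the median was 70.5% (53.5 to 77.1%). The 7 tuft genes had a median of 2676%, with a range of 1502 to 14298%. They were listed as markers of tuft cells, so a high share in Tuft follows from the list. These shares are descriptions of group means and were not tested.

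Further secretory genes with large effects at both stages were of varied function. Plet1, a surface protein of progenitor cells, was 91.1, 0 and 11.3 in AbsPro and 1184, 727, 1396 and 1251 in SecPDG, and 119, 70.0, 111, 54.7 and 270 in Enterocyte and 3497, 1094, 1999, 861 and 3892 in Tuft. Slc12a8, a membrane transporter, rose by 3.53 ± 0.52 and 3.26 ± 0.41, Col8a1, a short-chain collagen, by 3.59 ± 0.62 and 3.23 ± 0.49, and Samd5 by 4.75 ± 0.75 and 4.06 ± 0.57. For Samd5 the background estimate was above the Enterocyte mean (114%) and for Col8a1 it was 49%. Etv5, a transcription factor that responds to receptor tyrosine kinase signaling, was 506, 324 and 488 in AbsPro and 3672, 3734, 3587 and 3450.1 in SecPDG, and 126, 94.1, 86.6, 164 and 154 in Enterocyte and 2409, 2255, 2369.8, 1454 and 3417 in Tuft. Its spread within SecPDG was small beside the distance to AbsPro, and it was the only 1 of 23 listed genes of Fgf, Egf and Kit signaling called at both stages. Kit itself rose by 3.15 ± 0.44 and 4.20 ± 0.37, but Kit was a sorting marker of these gates and its level is no finding. Among 16 enteroendocrine genes, Pcsk1, a prohormone convertase, was higher in secretory cells and Pyy, a peptide hormone, higher in absorptive cells at both stages. Pyy averaged 421 ± 331 in AbsPro (SD, n = 3) against 20.3 ± 30.9 in SecPDG (n = 4), and its mature call was lost when any 1 of 10 libraries was left out and its progenitor call without any of AbsPro 1 or SecPDG 1, 2 or 3. The progenitor call on Pcsk1 was lost without any of AbsPro 1, 2 or 3 or SecPDG 1, 3 or 4. The summed enteroendocrine list spanned 4832 to 20898 (AbsPro), 3211 to 7569 (SecPDG), 9823 to 35760.4 (Enterocyte) and 2639 to 30028 (Tuft), against 601986 to 1731752 in the EEC libraries.

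On the absorptive side, of 29 listed genes of ion, water and solute transport, 11 were higher in absorptive cells at both stages. None was higher in secretory cells at both, and the absorptive share over all genes tested was 0.689%. The 11 were Car1, Slc26a3, Slc9a2, Slc9a3, Aqp4, Aqp8, Slc51a, Slc51b, Slc5a8, Slc20a1 and Slc6a14. The list median was -1.30 and -1.47. Slc26a3 (chr12:31390871-31473917, plus strand), the apical chloride and bicarbonate exchanger, was 2487, 2062 and 3489.7 in AbsPro and 17, 74.6, 22.7 and 71.5 in SecPDG, and 3420.2, 4466, 3242, 4939 and 3059 in Enterocyte and 69.6, 135, 104, 125 and 71.9 in Tuft. No secretory library came near the absorptive range, and the log2 fold change was -5.86 ± 0.58 (SE, edgeR adjusted p = 9.00e-08) and -5.24 ± 0.49 (edgeR adjusted p = 1.10e-09). Car1 (chr3:14766216-14808368, minus strand), a carbonic anhydrase, was 55432, 62073 and 84903 in AbsPro and 1024, 1359, 1022 and 1935 in SecPDG, and 37935, 35594, 25139.5, 35673 and 47979.7 in Enterocyte and 1601, 544, 1817, 430.1 and 1308 in Tuft. Its AbsPro libraries were the highest of the 17, and the secretory libraries 50.5-fold and 32-fold lower by the means.

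Slc6a14, an amino acid transporter, was 3416, 1849 and 2995 in AbsPro and 87, 89.5, 157 and 112 in SecPDG, and 3032, 6857, 4858, 13617 and 10399 in Enterocyte and 121, 60.6, 233, 39.1 and 129 in Tuft. The lineages were again separate, with log2 fold changes of -4.63 ± 0.53 and -6.06 ± 0.49. Aqp8, a water channel of surface enterocytes, was 84.1, 22.8 and 133 in AbsPro and 1245, 1395, 1151, 1309 and 883 in Enterocyte, and it was 0, 3.73, 0 and 2.94 in SecPDG and 1.22, 39.1, 39.2, 42.6 and 0 in Tuft. Its log2 fold changes were -5.61 ± 1.12 and -5.63 ± 0.81, although its level in AbsPro was far below that in Enterocyte, and its progenitor call was lost without AbsPro 3 or SecPDG 1. Trpm6, a magnesium channel outside the list, fell by 4.87 on the log2 scale in SecPDG and fell by 4.34 in Tuft. Trpv6, an epithelial calcium channel chosen after its values were seen, changed by -4.08 ± 0.76 and -2.31 ± 0.60. Its mature call was lost without Enterocyte 1 to 3 (edgeR adjusted p = 0.163) and without any 1 of 10 libraries (AbsPro 1 or 3, Tuft 1, 2, 4 or 5, or Enterocyte 1, 2, 3 or 4). Slc51a, a subunit of the basolateral bile acid transporter, changed by -5.36 ± 0.66 and -2.65 ± 0.50, and its mature call was lost without Enterocyte 1 to 3 (0.0508).

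Promoters of these genes were searched for 4 short motifs, since both gene sets are groups that moved together. The windows were RefSeq promoters of GRCm38.p6, 250 bases before to 50 after a gene start, and they covered 125 of the 157 absorptive genes (158 windows) and 152 of the 205 secretory genes (218 windows). CAAAGTCC, the core of the sequence bound by Hnf4 receptors, was in 5.70% of absorptive, 1.38% of secretory and 1.42% of all 32851 windows. CATAAA, a core of Cdx sites, was in 17.7%, 11% and 11.8%, and in 9.79% of the 20304 windows of tested genes, which lies below the secretory share. CAGCTG, an E-box of the kind that factors such as Atoh1 bind, was in 20.2%, 19.3% and 16.3%, and ATTTGCAT, the octamer of Pou factors, in 3.17%, 2.75% and 1.74%. In the windows of tested genes the shares of CAAAGTCC, CAGCTG and ATTTGCAT were 1.42%, 16.3% and 1.54%. Both strands were read, and no matches overlapped in the windows shown. A match is a description of the letters and not a bound site. The CAAAGTCC share of absorptive genes rests on 9 windows.

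Windows are shown for 4 absorptive genes of transport and detoxification that hold CAAAGTCC and for 2 secretory genes that hold the octamer, with motif matches in capitals. Slc51a lies at chr16:32487830-32488129, minus strand, Trpv6 at chr6:41636356-41636655, minus strand, Cyp2c65 at chr19:39060756-39061055, plus strand, and Sult1b1, at the second of its 2 RefSeq starts, at chr5:87536173-87536472, minus strand. Plet1 lies at chr9:50494275-50494574, plus strand and Dll1, at 1 of its 2 RefSeq starts, at chr17:15375774-15376073, minus strand. The other Dll1 window holds CAGCTG and no octamer, and the other Sult1b1 window holds none of the motifs.
Slc51a: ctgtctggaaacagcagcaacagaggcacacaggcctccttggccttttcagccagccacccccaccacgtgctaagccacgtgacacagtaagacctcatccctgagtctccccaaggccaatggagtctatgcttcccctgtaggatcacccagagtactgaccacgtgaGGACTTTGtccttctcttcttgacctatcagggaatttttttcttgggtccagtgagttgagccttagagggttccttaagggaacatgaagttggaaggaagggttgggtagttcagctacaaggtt
Trpv6: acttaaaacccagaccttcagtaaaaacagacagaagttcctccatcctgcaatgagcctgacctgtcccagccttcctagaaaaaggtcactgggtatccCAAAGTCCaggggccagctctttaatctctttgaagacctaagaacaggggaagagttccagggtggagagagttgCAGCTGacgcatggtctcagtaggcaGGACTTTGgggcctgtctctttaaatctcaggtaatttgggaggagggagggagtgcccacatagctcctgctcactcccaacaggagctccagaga
Cyp2c65: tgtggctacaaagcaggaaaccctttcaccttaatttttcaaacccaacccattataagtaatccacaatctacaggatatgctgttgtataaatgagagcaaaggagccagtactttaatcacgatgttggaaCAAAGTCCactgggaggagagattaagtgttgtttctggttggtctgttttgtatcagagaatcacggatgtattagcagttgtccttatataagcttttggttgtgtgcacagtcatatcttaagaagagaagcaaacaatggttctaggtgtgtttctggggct
Sult1b1: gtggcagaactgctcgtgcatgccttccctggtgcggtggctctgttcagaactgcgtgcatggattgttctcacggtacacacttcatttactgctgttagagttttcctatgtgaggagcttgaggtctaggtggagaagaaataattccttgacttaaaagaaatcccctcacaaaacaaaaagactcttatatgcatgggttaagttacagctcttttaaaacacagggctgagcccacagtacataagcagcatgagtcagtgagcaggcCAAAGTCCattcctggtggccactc
Plet1: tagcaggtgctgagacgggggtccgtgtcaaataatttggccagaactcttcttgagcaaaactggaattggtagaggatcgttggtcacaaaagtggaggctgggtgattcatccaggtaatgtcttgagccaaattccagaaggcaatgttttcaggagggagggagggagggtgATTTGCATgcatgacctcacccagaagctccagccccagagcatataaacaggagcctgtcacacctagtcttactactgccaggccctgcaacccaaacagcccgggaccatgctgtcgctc
Dll1: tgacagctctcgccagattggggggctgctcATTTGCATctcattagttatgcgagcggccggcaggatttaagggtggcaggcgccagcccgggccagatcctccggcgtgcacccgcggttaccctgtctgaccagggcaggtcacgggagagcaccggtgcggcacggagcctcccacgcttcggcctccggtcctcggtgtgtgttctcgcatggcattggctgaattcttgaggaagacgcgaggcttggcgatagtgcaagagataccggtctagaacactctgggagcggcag

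Trpv6 holds CAAAGTCC on both strands and a CAGCTG between them, and the matches in Slc51a, Cyp2c65 and Trpv6 lie before the gene start while that of Sult1b1 lies after it.

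By count, detoxification genes gave the most absorptive genes of any list examined, an order that does not rank pathways, since the lists differ in size. Of 31 listed, 13 were higher in absorptive cells at both stages, against 0.689% of all genes tested. None was higher in secretory cells at both, and the list median was -2.08 and -1.54. The 13 were cytochromes P450 (Cyp2c55, Cyp2c65, Cyp2s1, Cyp3a13 and Cyp4f14), sulfotransferases (Sult1a1, Sult1b1 and Sult1d1), carboxylesterases (Ces2a, Ces2c and Ces2e), Gstm3 and Aldh1a1. Cyp2c55, an arachidonic acid hydroxylase of the colon, averaged 5535 ± 1299 in AbsPro (SD, n = 3) and 6074 ± 1108 in Enterocyte (n = 5) against 116 ± 51.5 in SecPDG (n = 4) and 97.4 ± 65.7 in Tuft (n = 5). The log2 fold changes were -5.57 ± 0.60 and -5.96 ± 0.54. Sult1b1 changed by -3.58 ± 0.50 and -4.77 ± 0.46, Cyp2c65 by -3.76 ± 0.46 and -3.38 ± 0.39, Ces2c by -4.42 ± 0.79 and -5.40 ± 0.72 and Ces2e by -3.89 ± 0.48 and -3.76 ± 0.41. The Cyp2c, Sult1 and Ces2 genes have near copies in the genome, so the share of reads between copies is uncertain.

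Brush border genes were called in both directions. Of 23 listed, 6 were higher in absorptive cells at both stages, namely Krt20, Mep1a, Mep1b, Dpep1, Ceacam20 and Tmigd1. Slc9a3r2, a scaffold protein, was higher in secretory cells at both. Over all genes tested the absorptive and secretory shares were 0.689% and 0.9%. The list median was -0.16 and -0.30, near that of all genes at the progenitor stage. Mep1a, a metalloprotease of the brush border, was 2478, 2255 and 2875 in AbsPro and 189, 200.2, 149.9 and 270.3 in SecPDG, and 2244, 2959, 1769, 3016 and 2034 in Enterocyte and 228, 172, 219, 170.2 and 224 in Tuft. The lineages were far apart at both stages, with log2 fold changes of -3.65 ± 0.40 and -3.57 ± 0.35. Its partner Mep1b changed by -3.25 ± 0.64 and -3.41 ± 0.55, and Dpep1, a membrane dipeptidase that also cleaves a leukotriene, by -4.41 ± 0.59 and -3.52 ± 0.49. Krt20, a keratin of differentiated cells, was 3522, 2087 and 6391 in AbsPro and 520, 239, 496 and 492 in SecPDG, and 8055, 8431, 11012, 9704 and 12343 in Enterocyte and 94, 115, 329.9, 131 and 728 in Tuft.

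Of 12 enterocyte genes, 8 were higher in absorptive cells at both stages, against 0.689% of all genes tested. The list median was -4.38 and -5.10. The list was chosen with earlier results of these data known, so this count and median are no independent evidence. Car1, Slc26a3 and Aqp8 are also in the transport list, Krt20 and Ceacam20 in the brush border list and Cyp2c55 in the detoxification list. Emp1, a membrane protein, was 3226, 2863 and 6369.8 in AbsPro and 29.3, 47.2, 18.5 and 37.2 in SecPDG, and 3749, 4276, 2636, 5217 and 3132 in Enterocyte and 137, 78.2, 67, 51.8 and 51.9 in Tuft. The absorptive libraries were 126-fold and 49.3-fold higher by the means. Slc37a2, a sugar-phosphate exchanger, changed by -6.36 ± 0.72 and -5.06 ± 0.60. Mal, a lipid raft protein of apical transport, changed by -4.94 ± 0.84 and -4.20 ± 0.71, and Sptssb, a subunit of serine palmitoyltransferase, by -5.49 ± 1.06 and -4.18 ± 0.86. The mature call on Sptssb was lost without Enterocyte libraries 1, 2 and 3 (edgeR adjusted p = 0.0332). Gsdmc2, a gasdermin with near copies beside it, changed by -4.43 ± 0.65 and -4.09 ± 0.56, and the gene 1810065E05Rik by -5.33 ± 0.65 and -5.11 ± 0.56.

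**Figure D4:**
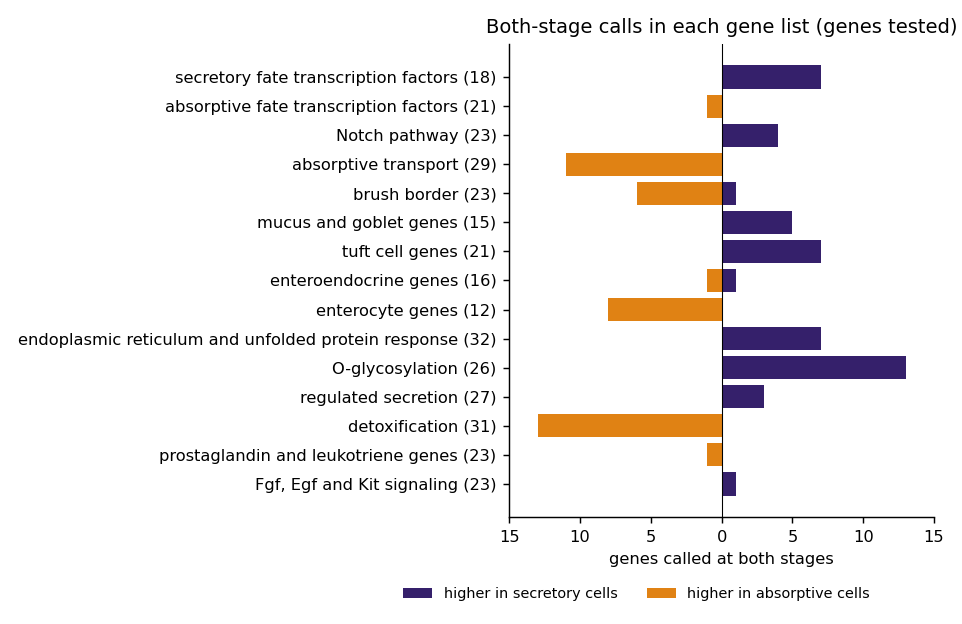
Number of genes called at both stages in each list that had any, with secretory genes to the right and absorptive genes to the left of 0 and the number of genes tested in parentheses. O-glycosylation has 13 secretory genes, and detoxification and absorptive transport have 13 and 11 absorptive genes. Some genes, such as Car1, Dpep1 and Pou2f3, stand in several lists and are counted in each, so the bars are not independent.

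Other lists held few or no both-stage genes. None of 27 genes of fatty acid oxidation and ketogenesis was called at both stages, with a median of -0.61 and -0.20. For DNA replication and mitosis, none of 20 was called at both and 13 were higher in Tuft than in Enterocyte, against 4.58% of all genes tested. The summed replication list spanned 52231 to 66563 (SecPDG), 37256 to 44199 (AbsPro), 23943 to 43920 (Tuft) and 5736 to 18023 (Enterocyte), with no overlap at either stage. Of 12 immediate early and heat shock genes, 3 were lower in Tuft and none passed at both stages. Of 23 prostaglandin and leukotriene genes, Dpep1, also listed under brush border, was the single one called at both stages. In Tuft 7 were higher and 3 lower, against 4.58% and 1.73% of all genes tested. Markers of immune (12 genes), stromal (8) and endothelial cells (4) held no both-stage gene. Only 2, 5 and 4 of them averaged the 50 normalized counts that a call needs. With both-stage shares of 0.9% and 0.689% over all genes tested, the lack of calls in such short lists says little about these cells. Their sums spanned 107 to 228, 35.4 to 170.2, 456 to 1326 and 202 to 1009 for immune genes in AbsPro, SecPDG, Enterocyte and Tuft. For stromal genes they were 187 to 1493, 50.1 to 222, 737 to 1521 and 213 to 777, and for endothelial genes 0 to 86.3, 24.5 to 74.6, 334 to 783 and 169.8 to 586. Epcam, which all sorts required, had log2 fold changes of -0.12 ± 0.43 and -0.10 ± 0.36.

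The lineage effect differed between the stages for 61 genes (0.268%), by the interaction of lineage and stage. At the mature stage it was shifted toward the secretory side for 42 and toward the absorptive side for 19. Of the 362 both-stage genes 4 were among them, Sh2d7, Fyb, Vav1 and Pstpip2, which were named after their values were seen. All 4 were higher in secretory cells, and all had a larger effect at the mature stage. Fyb, an adaptor of immune cell signaling, averaged 25.1 ± 20.9 in AbsPro (SD, n = 3) and 184 ± 75.6 in SecPDG (n = 4), and 118 ± 34.9 in Enterocyte and 9129 ± 3692 in Tuft (n = 5 each). Vav1, a guanine nucleotide exchange factor of blood cells, rose by 1.59 ± 0.37 and 3.89 ± 0.32, and Pstpip2 by 1.42 ± 0.34 and 4.43 ± 0.31. Sh2d7 rose by 3.88 ± 0.66 and 7.80 ± 0.61, but its interaction was lost with DESeq2 (adjusted p = 0.0343), as was that of Vav1 (0.0422). With DESeq2 size factors in edgeR the interactions of Sh2d7, Vav1 and Fyb and the progenitor call on Vav1 were lost, and the interaction of Pstpip2 was kept. Library totals and thinning ended the interactions of Sh2d7 and Vav1. That of Sh2d7 was also lost with the replicate block and without Enterocyte 1 to 3 together. Leaving out any of AbsPro 1 or 2, SecPDG 1, 2 or 4, Tuft 1 or 3 or Enterocyte 2, 3 or 4 ended it as well. Without filterByExpr the interaction of Vav1 was lost. It was also lost without any of AbsPro 1 or 2, SecPDG 2, 3 or 4, Tuft 1, 3 or 4 or Enterocyte 2, 4 or 5. The progenitor call on Vav1 was lost with library totals and without any of AbsPro 2 or 3 or SecPDG 1 or 3. The interaction of Fyb was lost without AbsPro 3. The progenitor call on Pstpip2 was lost without any one of the 7 progenitor libraries.

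Outside the both-stage genes, 9 genes with an interaction were chosen after their values were seen, Zg16 among them. Car4, a membrane carbonic anhydrase, averaged 561 ± 36.7 in AbsPro (SD, n = 3), 150.3 ± 85.7 in SecPDG (n = 4), 5246 ± 1488 in Enterocyte and 106 ± 26.6 in Tuft (n = 5 each). Tgm3, a transglutaminase, averaged 6274 ± 2725 in Enterocyte and 37.5 ± 28.9 in Tuft, against 75 ± 27.1 in AbsPro and 20.1 ± 16.4 in SecPDG. Both were called at the mature stage. Lgr5 and Axin2, targets of Wnt signaling used as stem cell genes, were higher in Tuft than in Enterocyte by 2.68 ± 0.30 and 2.29 ± 0.28, and were -0.21 ± 0.34 and 0.07 ± 0.32 at the progenitor stage, which did not pass. Alox5, the leukotriene-forming lipoxygenase, averaged 3689.5 ± 1290.1 in Tuft and 42.7 ± 14.4 in SecPDG, and Kctd12 averaged 15099 ± 4808 and 857 ± 155. Ptprc encodes Cd45, which the sorts excluded, and it averaged 1671 ± 781 in Tuft and 115 ± 35.2 in Enterocyte. Mptx1, a pentraxin, was higher in SecPDG than in AbsPro by 5.79 ± 1.05 and was -0.33 ± 0.67 at the mature stage. Of these interactions, that of Alox5 was lost with DESeq2 size factors in edgeR (adjusted p = 0.0285), library totals, thinning or without AbsPro 3 or SecPDG 2 or 3, and that of Lgr5 with DESeq2 size factors (0.0111). The interaction of Axin2 was lost without any of 7 libraries and that of Mptx1 without any of 6, that of Car4 without AbsPro 1 or 2, and that of Zg16 without AbsPro 2. Those of Car4 and Axin2 were also lost without Enterocyte 1 to 3. The interactions of Tgm3, Kctd12 and Ptprc passed under each alternative run.

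Stem cell libraries stood nearer to the absorptive lineage over the secretory genes. They entered no contrast, but they had a part in the gene filter, the scaling and the spread of the fit. With only the 17 libraries in the fit, 307 secretory and 277 absorptive genes were called at both stages. The mean of the 3 stem libraries was below all 4 group means for 115 of the 205 secretory genes, and it was nearer to the secretory than to the absorptive mean for 13. Over the 157 absorptive genes the stem mean lay between the lineages for 108 and below all 4 means for 5. It was nearer to the secretory than to the absorptive mean for 55 of the 157. Car1 had 15775 ± 5369 normalized counts in stem cells (SD, n = 3), under AbsPro and over SecPDG, and Spdef had 130.3 ± 95.9, under all 4 groups. EEC libraries, though of a secretory cell type, were nearer to the secretory mean for 57 of the 205 secretory genes and 50 of the 157 absorptive genes. The EEC libraries differed from each other, at 103 and 44 of the 157, and EEC replicate 1 had 4122122 counts on genes. These positions are descriptions on the log2 scale and were not tested. Choosing genes for high SecPDG and Tuft values also favors a low place for other cell types. The stem and EEC files share their form of name with AbsPro and Enterocyte. If that form marks a run, its part in these positions cannot be told apart.

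**Figure D5:**
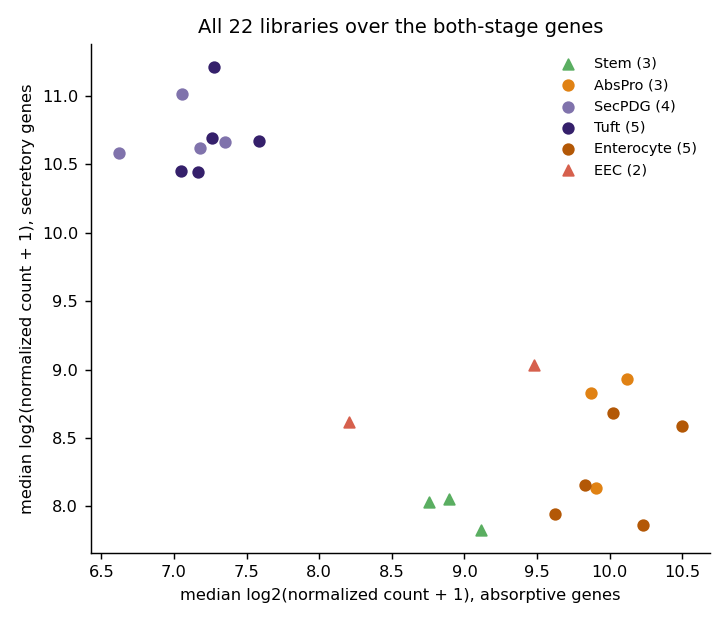
Each point is 1 of the 22 libraries, placed by its median log2(normalized count + 1) over the 157 absorptive genes (x axis) and the 205 secretory genes (y axis). SecPDG and Tuft lie at 6.62 to 7.58 on x, the stem libraries at 8.76 to 9.12, and AbsPro and Enterocyte at 9.63 to 10.5. The separation of the 17 libraries follows from how the genes were chosen.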

How the data were processed

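RNA was measured in 22 libraries of sorted mouse colon crypt cells, 17 of which were compared (AbsPro 3, Enterocyte 5, SecPDG 4, Tuft 5). RNA was amplified with a low-input kit and sequenced as paired reads on an Illumina instrument. The authors deposited raw read counts per gene, not normalized, made with STAR 2.5.2a and HTSeq 0.6.1p1 per the submitters' processing notes, on mm10. Each file lists 24421 genes and 5 entries that name no gene, which held 53.9 to 91.6% of its total and were left out. Reads were counted without strand, so overlapping and antisense genes cannot be told apart. The authors' tables of comparisons and normalized values were not used.

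Counts were fitted with edgeR 4.0.16 in R 4.3.3 (quasi-likelihood F test, TMM factors, filterByExpr, 1 coefficient per cell type, Benjamini-Hochberg over 22781 genes). A call needed an adjusted p under 0.01 together with an average of 50 or more normalized counts in the 17 libraries. Standard errors are the log2 fold change over the square root of F. Alternatives included DESeq2 1.42.0, other scalings, filters and thresholds, thinned counts, a replicate block and libraries left out. Background per kilobase was taken from 1507 receptor and keratin-associated genes with a transcript length, and no estimate was made for genes without one. Positions are from GENCODE M21 on GRCm38. Named genes were the 12 in each direction with the largest smaller effect of the 2 stages among both-stage genes whose libraries did not overlap, the 4 largest in each list, the largest interactions among genes called in opposite directions (0 genes), and a fixed set of defining genes, with exceptions stated where they occur. The members, lists and rule were chosen with earlier results of these data known. The test was checked on simulated data with 50 genes changed at both stages for each fold. It recovered 0 at 2-fold, 19 at 4-fold, 38 at 8-fold and 47 at 16-fold, and called 0 unchanged genes at both stages. A gene that was not called at both stages may therefore still differ. In the simulation an unchanged gene had the same mean and spread in every cell type, and no background or run difference was put in. The 0 cannot speak to calls that such differences would make.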

Additional observations from a re-analysis of the deposited data

Results flagged for a closer look

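In a group of 4 or 5 libraries a value was noted where 1 library stood apart by Dixon's test, which chance does in about 1 of 20 groups, and 6 of 72 groups examined had one. Spdef was 7246 normalized counts in SecPDG replicate 2, with the other 3 SecPDG libraries at 6024 to 6188. The same library had Krt20 at 239 against 492 to 520. Tuft replicate 5 held the summed enterocyte genes at 25514 against 10549 to 13763 in the other Tuft libraries. Dll1 was 762 in Enterocyte replicate 4 against 260.4 to 403. Enterocyte replicate 5 stood apart for Retnlb, at 3197 against 167 to 735, and for the summed mucus and goblet genes, at 774302 against 250410 to 397231.

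The lineage effect differed between the stages by the edgeR interaction test for 14 of the genes named. The interaction, the mature minus the progenitor log2 fold change, was positive for Sh2d7 (3.92), Fyb (3.38), Pstpip2 (3.01), Vav1 (2.30), Kctd12 (4.42), Alox5 (3.49) and Ptprc (5.23). It was also positive for Lgr5 (2.89), Axin2 (2.21) and the sorting marker Cd44 (2.83). It was negative for Car4 (-3.74), Zg16 (-3.85), Tgm3 (-5.50) and Mptx1 (-6.13). The edgeR adjusted p was 0.00692 for Sh2d7 and 0.00676 for Vav1, close to the threshold, and 4.05e-06 for Kctd12.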

How the results depend on the processing

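Every named gene called at a stage kept its direction under each alternative run, while the counts of calls moved. The counts below stand in the order higher and lower in SecPDG, higher and lower in Tuft, secretory and absorptive at both stages, opposite directions, and stage difference. With the DESeq2 Wald test, counts that moved by over 1.5 times were 869, 574 and, for genes lower in Tuft, 1220, then 554 and 424 at both stages, 12 opposite and 296 with a stage difference. DESeq2 size factors in edgeR gave 561, 365, 853 lower in Tuft, 398, 286, 3 and 95. Library totals without TMM gave 542 lower in SecPDG, 901 lower in Tuft, 381 absorptive at both stages, 3 and 107. With only the 17 libraries in the fit there were 408 lower in SecPDG, 277 absorptive at both stages, 4 opposite and 119 with a stage difference. An adjusted p under 0.05 gave 459, 383, 1736 higher in Tuft, 366, 267, 6 and 119. Thinning larger libraries to 5950619 counts, the smallest total of the 17, gave 2 genes in opposite directions. EEC replicate 1, with 4122122 counts, was not thinned. Without Enterocyte libraries 1, 2 and 3, an alternative chosen after seeing the data, 470 genes were higher and 245 lower in Tuft, while 159 of the 205 and 110 of the 157 both-stage genes were kept. Leaving out each of the 17 libraries in turn gave ranges of 103 to 352 and 152 to 262 at the progenitor stage, 724 to 2037 and 313 to 423 at the mature stage, 90 to 283 and 115 to 162 at both stages, 0 to 1 in opposite directions and 38 to 98 with a stage difference. The lowest secretory counts came without AbsPro replicate 2 (103, 90 and 38 with a stage difference), and the lowest count of genes lower in SecPDG without SecPDG replicate 3. More than 1.5 times as many genes were higher in Tuft without AbsPro replicate 1 (1957), AbsPro replicate 3 (2002) or Tuft replicate 4 (2037), and genes with a stage difference rose to 92 without AbsPro replicate 3, 93 without Tuft replicate 4 and 98 without Enterocyte replicate 1. The cause was not tested. The mature median over genes averaging 50 or more normalized counts moved from 0.22 to -0.18 with DESeq2 size factors and -0.22 with library totals, and the progenitor median from -0.04 to -0.21 with library totals. Of progenitor calls, 54.5% were higher in SecPDG, and 41.8% with library totals, which called 901 genes higher and 901 lower in Tuft. Of mature calls, 72.6% were higher in Tuft, and 53.3% with DESeq2 and 54.1% with its size factors in edgeR. For the named genes at single stages, 23 results fell below the threshold under the other alternatives and 120 when 1 library was left out.

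The main fit did not pair libraries by replicate number, and whether same-numbered libraries of different cell types share mice is not stated. Deviations of same-numbered libraries correlated at -0.322 to -0.0627 between AbsPro and SecPDG and at -0.366 to 0.493 between Enterocyte and Tuft. With so few libraries these values cannot show whether mice were shared. With the replicate number as a block, 203 secretory and 179 absorptive genes were called at both stages and 1 in opposite directions, with 186 of the 205 and 148 of the 157 among them. Among named genes the block ended the progenitor calls on Dll4, Lfng and Pstpip2 and the mature call on Pyy. No alternative was left out.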
